A study of Rattus norvegicus with 3 samples.

Results

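Txnip and 9 genes that handle glucose or belong to the same arrestin family were followed across the cell types of the rat heart apex. The 10 genes, Txnip, Arrdc3, Slc2a1, Slc2a4, Hk1, Hk2, Pfkfb2, Pfkm, Pdk2 and Pdk4, were taken by symbol from a fixed list, and all 10 were among the 22250 genes counted. The list was drawn up because Txnip had one of the highest ratios over WT in the cardiomyocytes of both dystrophic genotypes, so those Txnip ratios describe the choice and are not tested. The other 9 genes were listed for their function, but with earlier results of these data known.

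Thioredoxin-interacting protein, the product of Txnip, is an alpha-arrestin that binds thioredoxin and promotes the removal of the glucose transporters GLUT1 and GLUT4 from the plasma membrane. Its transcription is known to follow intracellular glucose through the MondoA and ChREBP factors with their partner Mlx, so Txnip is widely read as a sensor of glucose supply. Cardiomyocytes take up glucose through GLUT1 and GLUT4, trap it with hexokinase and commit it to glycolysis at phosphofructokinase. Pyruvate is then oxidized inside the mitochondrion by pyruvate dehydrogenase, which the pyruvate dehydrogenase kinases switch off.

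Nuclei were isolated from the heart apex of Sprague Dawley rats at 12 months of age and counted with the 10x Genomics single-nucleus RNA-seq chemistry, with 1 library per genotype. The WT library came from rats with an intact Dmd gene. The BMD library came from rats with an in-frame deletion in Dmd, a model of Becker muscular dystrophy, and the DMD library from rats with an out-of-frame deletion in Dmd, a model of Duchenne muscular dystrophy. The deletions were made in the germ line with CRISPR/Cas9, so every cell carried them, and the number of animals behind a library is not given in the sources used here. The apex pieces held parts of both ventricles and of the septum, and the nuclei were sorted by DAPI before loading.

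With 1 library per genotype there was no replicate, so no test between genotypes was possible. Levels are unique molecular identifiers (UMIs) summed over the nuclei of a class and divided by all UMIs of that class, given as counts per 1000000 UMIs (CPM). Ratios of CPM are on the log2 scale. Square brackets hold 95% exact counting intervals, which cover counting error only and say nothing of the spread between animals. Both genotype ratios share the WT library. A gene is said to be past 1.5-fold when its ratio exceeded 1.5 in either direction and it had at least 50 UMIs over the 3 libraries in the class.

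The libraries held 19215994 to 21609238 UMIs, and 24664 barcodes were kept as nuclei, with a median of 1212.5 to 1486.5 UMIs per nucleus. Between 12 and 20 nucleus barcodes were shared by a pair of libraries. The largest classes were 7443 fibroblast-like, 4931 endothelial-like and 4629 cardiomyocyte-like nuclei, the last with all 9 of the cardiomyocyte markers measured above the other nuclei. The cardiomyocyte-like nuclei (2036 WT, 1528 BMD and 1065 DMD) had medians of 2763, 3774 and 3269 UMIs. Dmd (ENSRNOG00000046366) stood at 16463, 20551 and 19448 CPM in them, which checks no label, since reads from the end of a transcript need not cross the deleted part.

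Promoter sequences of the members were read from RefSeq on the GRCr8 assembly, where 8 of the 10 genes had 9 windows of 300 bases that ran from 250 bases before to 50 after the annotated start. Txnip and Slc2a4 had no window. Both strands were searched for the E-box CACGTG, for the paired E-box of carbohydrate response elements, here 2 copies of CANNTG with any 5 bases between them, for the forkhead motif GTAAACA and for CCAAT, and no 2 of these motifs overlapped in the stretches printed here. The 250 bases before the start are shown for Pdk4 and Pfkfb2, the members other than Txnip whose levels in BMD cardiomyocyte-like nuclei were past 1.5-fold. Both genes lie on the minus strand and are printed 5′ to 3′ along the gene, at chr4:34568330-34568579 for Pdk4 and chr13:44726972-44727221 for Pfkfb2. Capitals mark the motif matches.
Pdk4: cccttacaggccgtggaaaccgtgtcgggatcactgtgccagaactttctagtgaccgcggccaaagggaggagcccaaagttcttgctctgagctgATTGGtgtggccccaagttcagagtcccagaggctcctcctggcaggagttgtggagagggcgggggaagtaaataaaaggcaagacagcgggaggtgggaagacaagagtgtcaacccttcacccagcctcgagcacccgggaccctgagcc
Pfkfb2: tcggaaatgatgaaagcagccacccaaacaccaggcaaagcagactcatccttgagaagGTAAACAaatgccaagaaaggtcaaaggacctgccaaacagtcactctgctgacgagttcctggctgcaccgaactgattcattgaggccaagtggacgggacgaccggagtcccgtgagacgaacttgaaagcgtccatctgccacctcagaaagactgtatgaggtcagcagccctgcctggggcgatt
The Pdk4 match is CCAAT read from the opposite strand, at position -153 from the start, a motif present in 37.5% of 33469 rat windows. Among the members, CCAAT was also found for Slc2a1, Hk1, Pfkm, Pdk2 and Arrdc3. The Pfkfb2 match is GTAAACA at position -191, present in 3.78% of the windows and in no other member's. The E-box CACGTG, in 6.42% of all windows, was found only in the window of Pdk2 among the members, at position -143, and the paired E-box, in 0.777%, in none of them. A match is a run of letters and not a binding site.

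Txnip (ENSRNOG00000021201) was counted 589, 3298 and 1618 times in the cardiomyocyte-like nuclei of the WT, BMD and DMD libraries. WT nuclei stood at 92.5 CPM [85.2, 100.3], BMD nuclei at 495 CPM [478, 512] and DMD nuclei at 417 CPM [397, 437]. The intervals of the 3 libraries did not overlap, and WT was the low one. The log2 ratio was 2.42 [2.29, 2.55] for BMD over WT and 2.17 [2.03, 2.31] for DMD over WT, and DMD lay below BMD by a log2 ratio of -0.25 [-0.33, -0.16]. By the ratio nearer 0 of the BMD and DMD values, Txnip stood in place 29 from the highest of 10140 genes, which is the property it was listed for.

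Outside the cardiomyocyte-like nuclei the order of the libraries was different. In fibroblast-like nuclei Txnip was at 922 CPM in WT, 367 in BMD and 714 in DMD, a log2 ratio of -1.33 [-1.43, -1.23] for BMD and -0.37 [-0.44, -0.30] for DMD. BMD was the low library there by a wide margin, and none of the 3 intervals overlapped. In endothelial-like nuclei the levels were 772, 356 and 802 CPM, with ratios of -1.12 [-1.26, -0.98] and 0.05 [-0.06, 0.17]. In pericyte-like nuclei they were 592, 277 and 532 CPM, with ratios of -1.10 [-1.38, -0.82] and -0.15 [-0.37, 0.06]. In both of these classes WT and DMD overlapped while BMD stood below them.

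The smaller classes had the same low BMD library. Endocardial-like nuclei held Txnip at 553, 249 and 646 CPM in WT, BMD and DMD, a BMD ratio of -1.15 [-1.61, -0.71]. Lymphatic-like nuclei held 801, 515 and 839.8 CPM, with a BMD ratio of -0.64 [-0.95, -0.32]. T or B cell-like nuclei held 493, 328 and 518 CPM, with a BMD ratio of -0.59 [-0.96, -0.22]. Macrophage-like nuclei, at 451, 325 and 549 CPM, had a BMD ratio of -0.47 [-0.69, -0.26] and the one DMD ratio outside the cardiomyocytes whose interval lay above 0, 0.28 [0.10, 0.47]. Txnip was thus past 1.5-fold lower in BMD in 6 of the 7 other classes and in DMD in 0 of 7. The T or B cell-like ratio lay at the 1.5-fold line itself, and the BMD count ran from 4 to 7 under the alternatives, with 4 at the finer clustering, where T or B cell-like nuclei gave -0.29 and pericyte-like nuclei -0.53. For all genes tested in those classes, the share past 1.5-fold lower in BMD was 11.3% in fibroblast-like, 9.91% in endothelial-like, 11.6% in pericyte-like, 13.8% in endocardial-like, 12.4% in lymphatic-like, 14.1% in T or B cell-like and 12.5% in macrophage-like nuclei. For DMD the corresponding shares were 6.0%, 4.86%, 7.95%, 8.83%, 9.51%, 7.79% and 9.28% in the same order of classes.

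Mitochondrial shares moved with Txnip in part of these classes. The median share was 1.99%, 1.14% and 1.74% in WT, BMD and DMD fibroblast-like nuclei, 1.17%, 0.889% and 1.58% in endothelial-like nuclei and 0.815%, 0.533% and 0.855% in endocardial-like nuclei, the same order of libraries as Txnip. BMD was also lowest in macrophage-like (2.98%, 0.795% and 1.22%) and T or B cell-like nuclei (2.53%, 1.64% and 2.30%), but highest in lymphatic-like nuclei (1.84%, 2.92% and 1.56%) and level with WT in pericyte-like nuclei (0.456%, 0.457% and 0.785%). With only nuclei of at most 5% mitochondrial UMIs, the BMD ratio of Txnip was -1.33 in fibroblast-like, -1.22 in endothelial-like and -1.04 in endocardial-like nuclei. It was -0.65 in lymphatic-like, -0.64 in pericyte-like, -0.26 in T or B cell-like and -0.18 in macrophage-like nuclei, the last 2 no longer near 1.5-fold. The kept nuclei were clustered and named anew, so the classes changed in make-up as well. A cluster led by Wdfy4, Flt3 and Dscaml1 was left unnamed, for example. Pericyte-like nuclei gave -0.53 at the finer clustering without this filter. The parts of the filter and of the new clusters in these ratios were not told apart.

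The DMD library stood above the BMD library in all 7 of these classes. The log2 ratio of Txnip for DMD over BMD ran from 0.66 [0.29, 1.03] in T or B cell-like to 1.38 [0.98, 1.78] in endocardial-like nuclei and was past 1.5-fold in each. Of all genes, 8.17% were past 1.5-fold higher in that comparison in fibroblast-like, 10.6% in endothelial-like, 9.78% in pericyte-like, 12.3% in endocardial-like, 9.19% in lymphatic-like, 14.4% in T or B cell-like and 12.6% in macrophage-like nuclei. Cardiomyocyte-like nuclei were the exception, with DMD slightly below BMD.

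**Figure D1:**
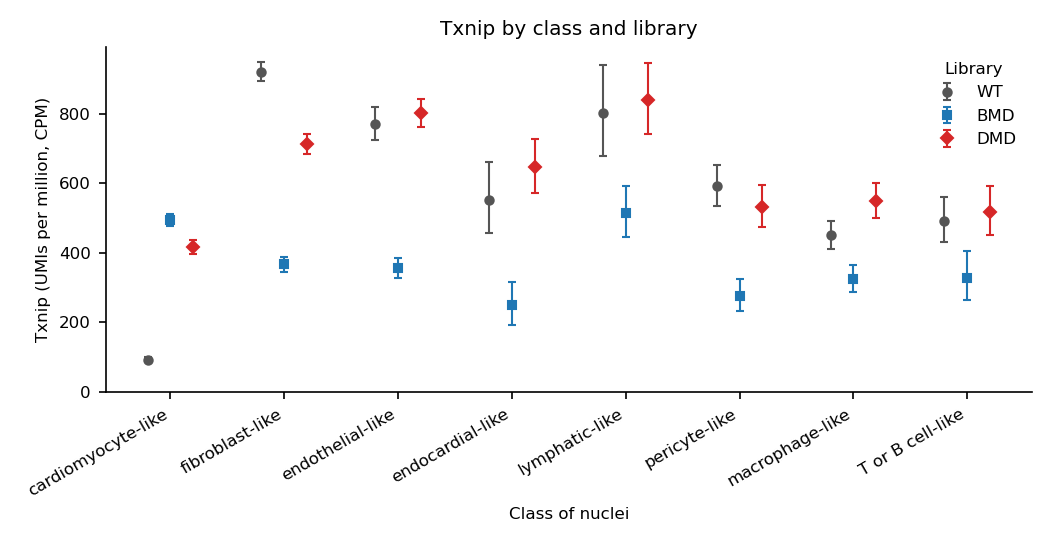
Txnip level (CPM, linear axis from 0) in 8 classes of nuclei, one symbol per library with its 95% counting interval. In cardiomyocyte-like nuclei WT is lowest at 92.5 CPM, while in the other 7 classes BMD is lowest, from 249 CPM in endocardial-like to 515 CPM in lymphatic-like nuclei.

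The classes therefore ranked differently in each library. In WT, Txnip was highest in fibroblast-like nuclei, whose interval overlapped that of the lymphatic-like nuclei next to them, which in turn overlapped the endothelial-like nuclei. Pericyte-like nuclei came next and overlapped none of these. Endocardial-like, T or B cell-like and macrophage-like nuclei followed, each overlapping the class before it. Cardiomyocyte-like nuclei came last in WT and overlapped no other class. In BMD they came second at 495 CPM, overlapping the lymphatic-like nuclei at 515 CPM and lying above the fibroblast-like nuclei at 367 CPM. In DMD they were last again at 417 CPM, below the T or B cell-like nuclei at 518 CPM with no overlap.

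Taken over all nuclei without regard to class, Txnip was at 481 CPM in WT, 422 in BMD and 610.3 in DMD. The class-level differences were hidden in that sum, where the log2 ratio for BMD over WT was -0.19 and that for DMD was 0.34. Barcodes with at most 50 UMIs, which hold free RNA, carried Txnip at 740.0, 883 and 1136 CPM. Judged from markers that cardiomyocytes should lack, free RNA made up at most 2.10%, 1.79% and 1.34% of the UMIs of the cardiomyocyte-like nuclei.

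BMD was also the lowest library inside the subdivisions of the fibroblast-like and endothelial-like classes. The larger fibroblast-like cluster, led by Abca8a, Rgs17 and Fgf10, held Txnip at 970.2 CPM in WT, 430 in BMD and 777 in DMD. The smaller, led by the matrix and inflammatory genes Ltbp2, Tnc and Ccl2, held it at 498, 262 and 491 CPM. This smaller cluster made up 280 of 3518 WT, 542 of 1650 BMD and 424 of 2275 DMD fibroblast-like nuclei. The class was thus not made up alike in the 3 libraries. The smaller cluster was the lower of the pair in each library, and BMD was lowest in both. The larger endothelial-like cluster, led by Unc5c, Aplnr and Fabp4, had 826, 367 and 824 CPM, and the smaller, led by Dkk2, Sox17 and Gja5, had 533, 318 and 682 CPM. In the latter the DMD ratio of 0.35 [0.03, 0.68] lay above 0, whereas in the larger endothelial-like cluster WT and DMD differed by less than the counting error. At the finer clustering the BMD ratio of Txnip was less uniform in the immune classes. In macrophage-like nuclei it was -0.40 [-0.70, -0.10] in a cluster led by F13a1, -0.73 [-1.17, -0.30] in one led by Spp1 and 0.01 [-0.58, 0.59] in one led by Flt3. In T or B cell-like nuclei it was -0.66 [-1.15, -0.18] in a cluster led by Themis and -0.23 [-0.87, 0.36] in one led by Clnk.

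Within the cardiomyocyte-like nuclei Txnip was unevenly spread. In WT 81.5% of these nuclei had no Txnip UMI, against 75.9% if every nucleus had had the same CPM, and the 10% of nuclei with the most Txnip held 70.8% of its UMIs. In BMD 30.8% had none, against 20% at equal CPM, and the top 10% held 37.0%. In DMD 39.6% had none, against 29.5%, and the top 10% held 39.2%. The top share depends on the number of UMIs, and reached 100% for Slc2a1 in WT from 178 UMIs. It therefore does not compare the spread between the libraries. At least 5 Txnip UMIs were found in 0.442% of the WT nuclei, in 14.3% of those from BMD and in 7.70% of those from DMD, so the higher level in the dystrophic libraries came with more nuclei that carried the transcript and more copies in them.

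The libraries differed in depth, so each nucleus was also thinned to 500 UMIs, with no nucleus left out. The share of cardiomyocyte-like nuclei with a Txnip UMI was then 3.78% [3.0, 4.7] in WT, 21.5% [19.4, 23.6] in BMD and 18.9% [16.6, 21.4] in DMD, against 18.5%, 69.2% and 60.4% before thinning. BMD and DMD overlapped on this measure and both lay above WT. Fibroblast-like nuclei gave 35.1%, 17.0% and 28.3% after thinning, again with BMD lowest. Binned by depth, cardiomyocyte-like nuclei with at least 4000 UMIs held Txnip at 95.5, 458 and 354 CPM, and those with 2000 to under 4000 UMIs at 86.1, 565 and 498 CPM. BMD and DMD lay above WT in every bin, including the shallowest, under 1000 UMIs, where only 12 WT, 23 BMD and 30 DMD UMIs were counted.

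**Figure D2:**
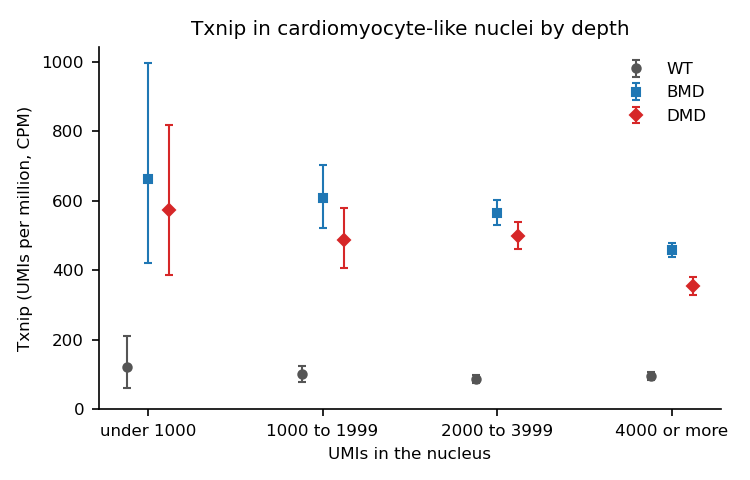
Txnip level (CPM, linear axis from 0) in cardiomyocyte-like nuclei grouped by the number of UMIs in the nucleus, one symbol per library with its 95% counting interval. WT lies between 86.1 and 119.9 CPM in all 4 bins, below BMD (458 to 664 CPM) and DMD (354 to 572 CPM).

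At a finer clustering the cardiomyocyte-like nuclei fell into 2 clusters, one lower and one higher in Nppa, the atrial natriuretic peptide gene that marks stressed ventricular cardiomyocytes. The members, Nppa and Nppb were left out of this clustering. The cluster higher in Nppa held 125 WT nuclei (6.17% of the class), 751 from BMD (49.2%) and 421 from DMD (39.7%), so the WT class was almost entirely the cluster lower in Nppa. In the cluster lower in Nppa, Txnip was at 76.0 CPM in WT, 563 in BMD and 461 in DMD, ratios of 2.89 [2.74, 3.04] and 2.60 [2.44, 2.77]. In the cluster higher in Nppa it was at 267 CPM [225, 315] in WT, 446 in BMD and 363 in DMD, ratios of 0.74 [0.49, 1.0] and 0.44 [0.18, 0.72].

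WT nuclei of the cluster higher in Nppa thus carried more Txnip than WT nuclei of the other cluster, while BMD and DMD nuclei of that cluster carried less than their counterparts. Without nuclei that Scrublet called doublets, the levels in the cluster higher in Nppa were 267, 445 and 366 CPM. Dividing the nuclei instead by whether a Nppa or Nppb UMI remained after thinning to 500 UMIs gave 162, 474 and 425 CPM with one and 77.4, 514 and 409 CPM without. The ratios were 1.55 [1.33, 1.78] for BMD and 1.39 [1.16, 1.63] for DMD with such a UMI, and 2.73 [2.58, 2.89] and 2.40 [2.23, 2.58] without. By either division the dystrophic libraries lay above WT on both sides.

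**Figure D3:**
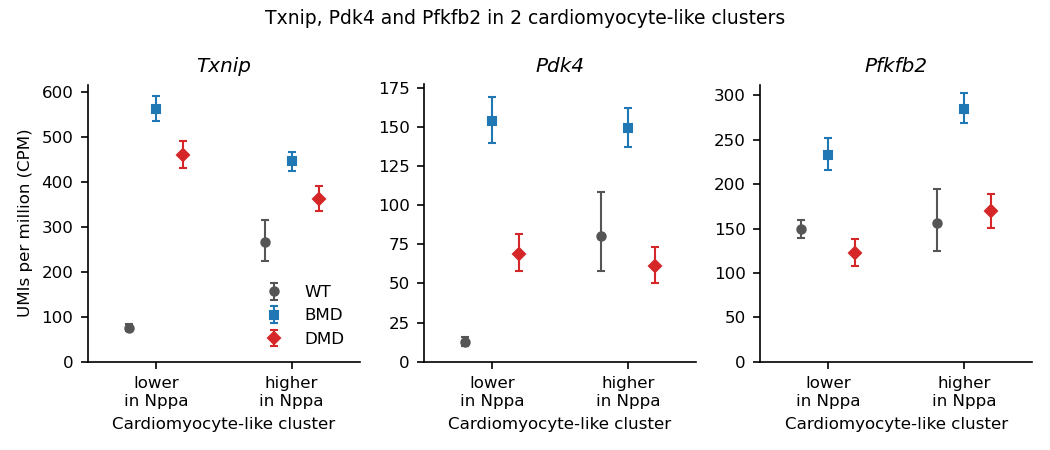
Levels of Txnip, Pdk4 and Pfkfb2 (CPM, linear axes from 0, one panel per gene) in the cardiomyocyte-like clusters lower and higher in Nppa, one symbol per library with its 95% counting interval. For Txnip the WT symbol moves from 76.0 to 267 CPM between the clusters, and for Pdk4 from 12.6 to 80.1 CPM, while the BMD and DMD symbols of these genes are lower or overlap between the clusters.

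Immediate early and dissociation-response genes stood in the same order of libraries as Txnip in the cardiomyocyte-like nuclei as a whole and in the cluster lower in Nppa. In the cluster higher in Nppa their sum was lowest in DMD, whereas Txnip was lowest in WT. The summed level over 18 genes was 274, 837 and 517 CPM in WT, BMD and DMD, with 235, 751 and 426 CPM in the cluster lower in Nppa and 711, 902 and 615 CPM in the cluster higher in Nppa. Outside the cardiomyocytes the sum was 475, 478 and 471 CPM in T or B cell-like and 406, 471 and 400.6 CPM in pericyte-like nuclei. In these 2 classes Txnip was lowest in BMD and the sum was not. In fibroblast-like nuclei BMD was lowest in both, though the sum differed little between the libraries (668, 655 and 688 CPM). BMD also lay below WT in the sum as in Txnip in endothelial-like (672, 570 and 670.3 CPM), endocardial-like (563, 491 and 591 CPM), lymphatic-like (639.9, 551 and 541 CPM) and macrophage-like nuclei (851, 515 and 609 CPM). The median mitochondrial share of cardiomyocyte-like nuclei was 0.139%, 0.249% and 0.327%. Markers of fibroblasts summed to 209, 165 and 389 CPM in the cardiomyocyte-like nuclei with 0 of 9 at 0, and markers of endothelial cells to 110.4, 172 and 189.5 CPM with 0 of 9 at 0. The part of these differences in the Txnip ratios was not tested.

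Arrdc3 (ENSRNOG00000045649), the other alpha-arrestin followed and a regulator of beta-adrenergic receptor trafficking, differed little between the libraries in the class as a whole. Cardiomyocyte-like nuclei held it at 27.2 CPM in WT, 28.2 in BMD and 25.2 in DMD, with ratios of 0.05 [-0.25, 0.36] and -0.11 [-0.48, 0.26]. All 3 intervals overlapped. The BMD ratio was 0.63 when each nucleus was thinned to 500 UMIs and -0.78 in the cluster higher in Nppa alone, where the DMD ratio was -0.80, so Arrdc3 is not shown to be the same in the 3 libraries. Fibroblast-like nuclei held 33.9, 31.8 and 41.0 CPM.

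Of the glucose transporters, Slc2a4 (ENSRNOG00000017226), which encodes the insulin-responsive GLUT4, was at 59.8, 59.6 and 52.3 CPM in cardiomyocyte-like nuclei. These were its highest levels among the classes in each library, and the ratios of -0.01 [-0.21, 0.20] and -0.19 [-0.45, 0.05] did not leave 0. Pericyte-like nuclei came next at 38.1, 54.5 and 42.3 CPM, from 25 to 28 UMIs per library, and overlapped the cardiomyocyte-like nuclei in each library. Slc2a1 (ENSRNOG00000007284), which encodes the basal transporter GLUT1, was at 27.9, 33.8 and 29.1 CPM in cardiomyocyte-like nuclei, with ratios of 0.27 [-0.02, 0.56] and 0.06. It differed in macrophage-like nuclei, at 64.4 CPM in WT against 28.4 in BMD and 29.1 in DMD (69, 25 and 25 UMIs), ratios of -1.18 [-1.90, -0.50] and -1.15 [-1.87, -0.47]. WT was the high library there, and macrophage-like nuclei were the highest WT class for Slc2a1, overlapping only the T or B cell-like nuclei next to them.

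The macrophage-like class was not made up alike in the 3 libraries. At the finer clustering it held 280 WT, 422 BMD and 332 DMD nuclei of a cluster led by F13a1, Cd163 and Mrc1, 333, 112 and 141 of a cluster led by Spp1, Edil3 and Lilrb4, and 130, 77 and 64 of a cluster led by Flt3, Wdfy4 and Ciita. In the Spp1 cluster Slc2a1 was at 129, 57.1 and 39.9 CPM from 55, 10 and 8 UMIs, with ratios of -1.18 [-2.31, -0.19] and -1.69 [-2.98, -0.62]. In the Cd163 cluster it was at 11.6, 13.9 and 24.6 CPM from 5, 8 and 13 UMIs, and in the Flt3 cluster at 42.5, 55.4 and 35.3 CPM from 9, 7 and 4 UMIs. Of these clusters, WT was the highest library for Slc2a1 in the Spp1 cluster alone, which also made up a larger share of the WT class. The Spp1 cluster raised the markers Lyz2, Csf3r, Plac8 and Fcnb and was named monocyte or neutrophil-like at the finer clustering, and the other clusters macrophage-like. Of the markers of these related classes, only Fcnb was among its 10 top genes, and that decided its name. The Slc2a1 difference thus lay in nuclei whose name depends on the clustering.

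Hk1 (ENSRNOG00000046891), the widely expressed hexokinase, was at 139.9, 183 and 166 CPM in cardiomyocyte-like nuclei, ratios of 0.39 [0.26, 0.51] and 0.25 [0.10, 0.40]. Both dystrophic libraries lay above WT, by less than 1.5-fold. Hk2 (ENSRNOG00000006116), the insulin-regulated hexokinase of muscle, was at 193, 172 and 154 CPM, ratios of -0.17 [-0.29, -0.06] and -0.33 [-0.47, -0.18]. The hexokinase genes thus differed from WT in opposite directions, each by a small amount.

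In some other classes Hk2 was higher in the dystrophic libraries. Fibroblast-like nuclei held Hk2 at 61.4, 111.0 and 85.6 CPM, ratios of 0.85 [0.62, 1.09] for BMD and 0.48 [0.24, 0.72] for DMD. T or B cell-like nuclei held 35.3, 93.3 and 80.4 CPM from 16, 25 and 34 UMIs, ratios of 1.40 [0.44, 2.40] and 1.19 [0.29, 2.14]. WT was the low library in both classes. The T or B cell-like class held 237 WT, 63 BMD and 161 DMD nuclei of a finer cluster led by Clnk, Klri1 and Prf1, with Hk2 at 40.9, 45.8 and 80.7 CPM from 10, 3 and 16 UMIs. It held 186, 189 and 168 nuclei of one led by Themis, Lef1 and Skap1, with Hk2 at 28.8, 108.7 and 67.0 CPM from 6, 22 and 14 UMIs, a BMD ratio of 1.92 [0.57, 3.51] and a DMD ratio of 1.22 [-0.25, 2.88]. Macrophage-like nuclei were the highest class for Hk2 in every library, at 301, 308 and 238 CPM, and there the DMD ratio was -0.33 [-0.59, -0.08].

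Pfkfb2 (ENSRNOG00000004162), the heart form of the bifunctional enzyme that makes and removes the phosphofructokinase activator fructose 2,6-bisphosphate, separated BMD from the other libraries. Cardiomyocyte-like nuclei held Pfkfb2 at 150.4 CPM in WT, 263 in BMD and 144 in DMD. BMD lay apart while WT and DMD overlapped, with ratios over WT of 0.81 [0.69, 0.92] and -0.06 [-0.21, 0.09] and a DMD over BMD ratio of -0.87 [-1.01, -0.73]. The BMD excess was present in the cluster lower in Nppa, at 149, 233 and 122 CPM, and in the cluster higher in Nppa, at 156, 285 and 169 CPM. Free RNA carried Pfkfb2 at 100.3, 273 and 93.0 CPM, in the same order of libraries as the cardiomyocyte-like nuclei. BMD was also the highest library in endothelial-like nuclei, at 31.3, 44.6 and 26.4 CPM, and in pericyte-like nuclei, at 42.5, 48.7 and 20.3 CPM, with intervals of WT and BMD that overlapped in both. It was not in fibroblast-like nuclei, at 40.7, 34.8 and 28.0 CPM. Pfkm (ENSRNOG00000057988), the muscle phosphofructokinase, was at 146 CPM in WT, 108.6 in BMD and 95 in DMD, ratios of -0.43 [-0.57, -0.28] and -0.62 [-0.80, -0.44], with WT above both.

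The pyruvate dehydrogenase kinases differed from each other. Pdk4 (ENSRNOG00000009565), the form induced by fasting and fatty acids, was at 18.1 CPM in WT, 151 in BMD and 65.7 in DMD cardiomyocyte-like nuclei, from 115, 1008 and 255 UMIs. No intervals overlapped and the libraries stood in the order WT, DMD, BMD. The ratio over WT was 3.07 [2.79, 3.36] for BMD and 1.86 [1.54, 2.19] for DMD, and DMD lay below BMD by -1.20 [-1.41, -1.0]. Pdk4 stood in place 44 from the highest of 10140 genes by the ratio nearer 0, and it was listed with earlier results of these data known. Pdk2 (ENSRNOG00000004172), the constitutive form, was at 40.5, 30.5 and 30.9 CPM, ratios of -0.41 [-0.68, -0.14] and -0.39 [-0.72, -0.07], with BMD and DMD alike below WT.

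The Pdk4 signal lay mostly in cardiomyocyte-like nuclei in BMD and DMD, and less clearly so in WT. After thinning to 500 UMIs, a Pdk4 UMI was found in 0.835% of cardiomyocyte-like nuclei from WT, in 6.61% of those from BMD and in 3.1% of those from DMD, against 3.78%, 33.0% and 15.3% before thinning. The T or B cell-like nuclei, a class with little Pdk4 and median depths of 826, 866 and 941 UMIs, gave 0 of 423 WT nuclei, which by counting error allows a share of nuclei with a UMI of up to 0.709% at the rule of 3 counts and 0.868% at the exact bound, and 0.397% in BMD and 0.300% in DMD. Each of the 7 other compared classes stood between 0 and 15.6 CPM. Endothelial-like nuclei had 3, 18 and 17 Pdk4 UMIs, or 2.23, 9.92 and 8.48 CPM, with wide ratios of 2.15 [0.38, 4.56] and 1.92 [0.13, 4.34]. Free RNA carried Pdk4 at 9.52, 44.2 and 22.5 CPM, below the cardiomyocyte-like nuclei of the same library in each case.

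Pdk4 shared with Txnip the higher WT level in the cluster higher in Nppa, but not the DMD ratio above 0 there. In the cluster lower in Nppa it was at 12.6, 154 and 68.9 CPM, ratios of 3.61 [3.25, 3.99] and 2.46 [2.04, 2.88]. In the cluster higher in Nppa it was at 80.1 CPM [57.7, 108.3], 149 and 61.1, ratios of 0.90 [0.45, 1.39] and -0.39 [-0.91, 0.16]. There the WT and DMD intervals overlapped and only BMD stood higher, whereas in the cluster lower in Nppa all 3 libraries were apart. In nuclei with a Txnip UMI at 500 UMIs, Pdk4 stood at 181.5 CPM [159, 206] for BMD (328 nuclei) and at 96.1 CPM [74.2, 122] for DMD (201 nuclei), against 144 [134, 154] and 59.3 [51.1, 68.3] in those without, with no overlap in either library. In WT it was at 40.6 CPM [19.5, 74.6] with a Txnip UMI, from 10 Pdk4 UMIs in 77 nuclei, and 17.2 CPM [14.0, 20.8] without, which overlapped. Deeper and shallower nuclei were pooled on each side.

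**Figure D4:**
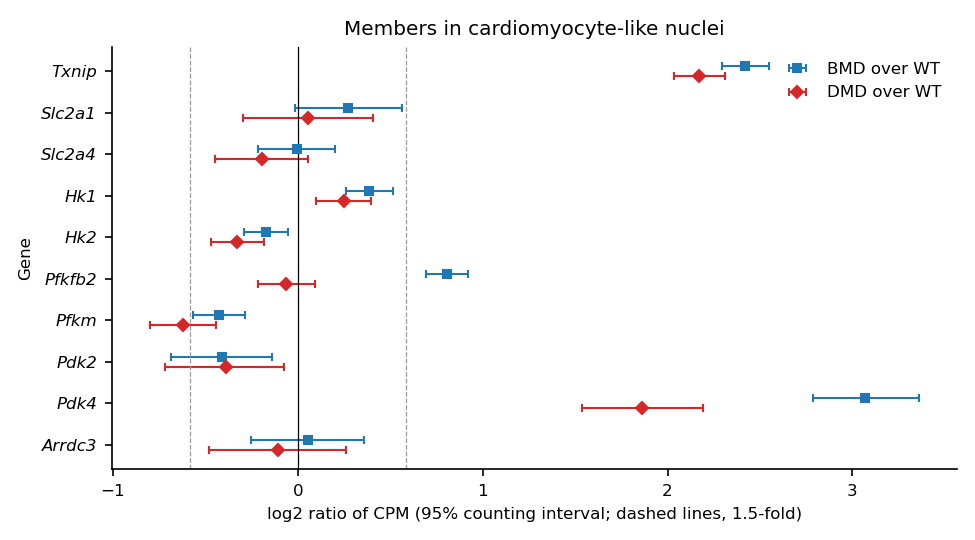
Log2 ratio of CPM of each of the 10 genes in cardiomyocyte-like nuclei, BMD over WT and DMD over WT, with 95% counting intervals; dashed lines mark 1.5-fold. Txnip (2.42 and 2.17) and Pdk4 (3.07 and 1.86) lie far to the right for both genotypes, Pfkfb2 is beyond 1.5-fold for BMD only (0.81) and Pfkm for DMD only (-0.62).

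Counted together in cardiomyocyte-like nuclei, 3 of the 10 genes were past 1.5-fold higher in BMD (Txnip, Pdk4 and Pfkfb2) and 0 lower, where 9.06% and 9.37% of 10140 genes were. In DMD 2 were higher (Txnip and Pdk4) and 1 lower (Pfkm), where 11.1% and 10.7% of genes were. In DMD over BMD 0 were higher and 2 lower (Pdk4 and Pfkfb2), beside 7.54% and 6.11% of genes. Txnip was listed for its ratios, so its count carries no weight here. The other members were listed with earlier results of these data known, so their counts are a description as well. The median log2 ratio of the 10 genes was 0.16 in BMD and -0.08 in DMD, beside -0.05 and -0.03 over all genes. All 10 members had at least 50 UMIs in this class.

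Fewer members could be judged elsewhere. In fibroblast-like nuclei 9 of 10 had enough UMIs, with Hk2 past 1.5-fold higher and Txnip and Pdk2 lower in BMD, beside 7.06% and 11.3% of genes, and none past it in DMD, beside 6.67% and 6.0%. The Pdk2 ratio rested on 33 and 12 UMIs and was -0.74 [-1.82, 0.25]. In endothelial-like nuclei 6 had enough, with Hk2 higher in BMD (1.05 [-0.03, 2.26], beside 5.83%) and in DMD (0.96 [-0.12, 2.16], beside 6.7%). In macrophage-like nuclei 6 had enough, with Slc2a1 lower in both genotypes and Hk1 lower in DMD (-0.65 [-1.44, 0.10]), beside 12.5% of genes in BMD and 9.28% in DMD. In T or B cell-like nuclei 3 had enough, with Hk2 higher in both genotypes, beside 9.69% of genes in BMD and 9.09% in DMD. In pericyte-like nuclei 4 had enough, with Pfkfb2 lower in DMD at -1.07 [-2.17, -0.05] from 29 WT and 12 DMD UMIs, beside 7.95% of genes. Txnip, described above, was also past 1.5-fold lower in BMD in endothelial-like, pericyte-like and T or B cell-like nuclei. It was the one member with enough in endocardial-like and lymphatic-like nuclei, and was lower in BMD there too. The intervals of these Pdk2, endothelial Hk2 and macrophage Hk1 ratios all included 0. In DMD over BMD, Pfkfb2 was also past 1.5-fold lower in endothelial-like nuclei (-0.76 [-1.28, -0.24], beside 4.36% of genes) and in pericyte-like nuclei (-1.26 [-2.39, -0.22], beside 6.14%), and 0 members were lower in fibroblast-like (beside 4.15%) and macrophage-like nuclei (beside 6.55%).

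**Figure D5:**
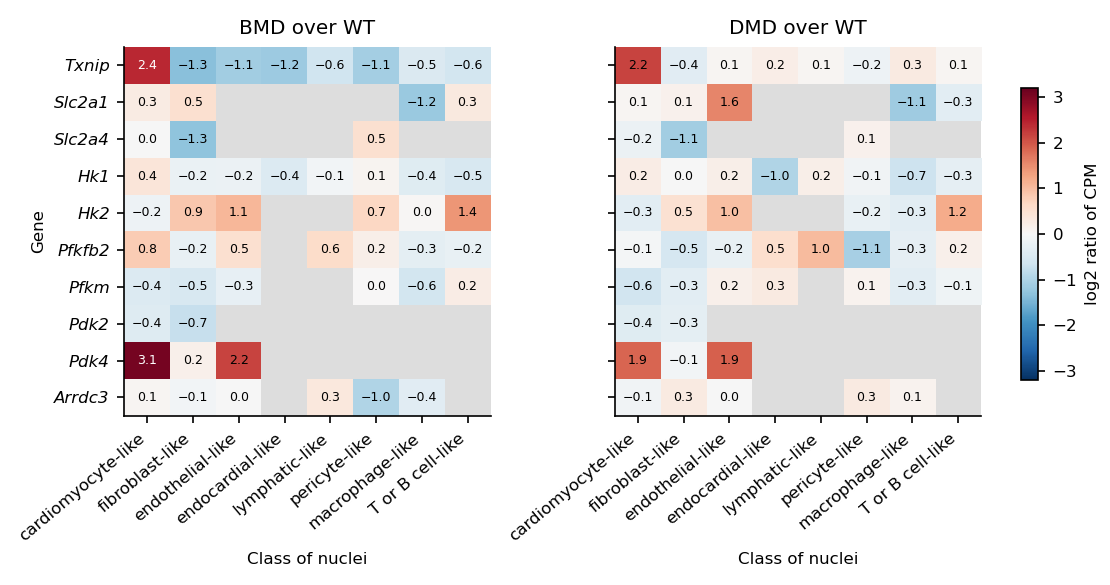
Log2 ratio of CPM of each gene in each of 8 classes of nuclei, BMD over WT on the left and DMD over WT on the right; blue is lower and red higher than WT, and grey cells had fewer than 20 UMIs in the libraries compared. The Txnip line is red in cardiomyocyte-like nuclei (2.42 and 2.17) and blue in all 7 other classes for BMD, while for DMD those 7 lie between -0.37 and 0.28.

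The wider pathway was counted by list in cardiomyocyte-like nuclei. These lists also hold members, such as Slc2a4 in transport and Pfkfb2 in glycolysis, which are counted there again. Of 13 genes of glucose, lactate and related transport with enough UMIs, 0 were past 1.5-fold higher and 2 lower in BMD, and 1 higher and 3 lower in DMD. The monocarboxylate transporter gene Slc16a7 was at 13.7, 4.20 and 4.12 CPM (-1.70 and -1.73), and its relative Slc16a10, which carries aromatic amino acids, at 278, 155 and 83.9 CPM (-0.84 and -1.73). Of 21 glycolysis genes 4 were higher, Pfkfb2 among them, and 1 lower in BMD, and 1 higher and 2 lower in DMD. Pfkp, the platelet phosphofructokinase, was the one non-member higher in both, at 17.4, 29.1 and 31.9 CPM (0.74 and 0.87), while the muscle form Pfkm was lower.

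Of 13 genes of pyruvate entry, 1 was higher in BMD and 1 higher and 1 lower in DMD, and the one higher in each was Pdk4. Of 17 glycogen genes 0 were higher and 2 lower in BMD, and 1 higher and 4 lower in DMD. Epm2a, which encodes the glycogen phosphatase laforin, was at 87.3, 47.0 and 55.9 CPM (-0.89 and -0.64). Of 12 hexosamine and pentose phosphate genes 0 were higher and 2 lower in BMD, and 1 higher and 0 lower in DMD. Over all genes the shares were 9.06% higher and 9.37% lower in BMD and 11.1% and 10.7% in DMD, so in lists of this length about 1 or 2 genes a direction is the background.

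Among 14 alpha-arrestin and thioredoxin genes, 1 was higher and 3 lower in BMD, and 2 higher and 1 lower in DMD. Arrdc2, another alpha-arrestin, was at 8.95, 4.95 and 4.89 CPM (-0.85 and -0.87), in the opposite direction to Txnip. The Mlx family factors that read glucose, with the related Max network, had 1 of 9 higher in BMD, and 1 higher and 1 lower in DMD, and the one higher in both was Myc at 4.71, 17.6 and 12.6 CPM (1.90 and 1.42). Insulin and AMPK signalling had 2 of 25 higher and 0 lower in BMD, and 2 higher and 2 lower in DMD, with Igf1r, the IGF-1 receptor gene, at 234, 403 and 559.6 CPM (0.78 and 1.26). Txnip is itself in the alpha-arrestin list and Pdk4 in the pyruvate entry list, where each was the gene higher in BMD.

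Clock and stress genes were counted in the same way. Of 15 circadian clock genes 1 was higher and 5 lower in BMD, and 0 higher and 3 lower in DMD, among them the clock repressor gene Per1 at 14.4, 5.55 and 6.18 CPM (-1.38 and -1.22) and the clock activator gene Npas2 at 88.7, 41.6 and 34.3 CPM (-1.09 and -1.37). Of 14 glucocorticoid response genes 5 were higher and 1 lower in BMD, and 3 higher and 2 lower in DMD, with Gadd45b at 5.34, 26.1 and 9.27 CPM (2.29 and 0.80). Of 16 immediate early and dissociation genes 14 were higher and 0 lower in BMD, with a median log2 ratio of 1.63, and 11 higher and 1 lower in DMD, with a median of 0.92. Fos was at 4.24, 57.8 and 17.0 CPM (3.77 and 2.0) and the heat shock gene Hspa1b at 1.88, 44.3 and 11.1 CPM (4.55 and 2.56), both in the order WT, DMD, BMD that Txnip and Pdk4 also had.

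The genes whose pattern was most like that of Txnip were found by the Pearson correlation of log2(CPM + 5), centred on the mean of the 3 libraries within each class, over 24 values from 8 classes and among 5986 genes with enough UMIs in each class. The 5 highest were Myl12a (0.83), a regulatory light chain of non-muscle myosin, Hsp90ab1 (0.82), a constitutive HSP90 chaperone, Zyx (0.80), the focal adhesion protein zyxin, Jun (0.79), an immediate early transcription factor, and Ctsl (0.78), the lysosomal protease cathepsin L. Of the members with enough UMIs for this measure, Hk1 gave 0.29, Pfkfb2 0.10, Arrdc3 0.07 and Hk2 -0.57. The 24 points share their 3 libraries, so the values are a description only.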

How the data were processed

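Nuclei of the rat heart apex were measured in 1 library each for WT, BMD and DMD, grouped by the sample labels. The authors deposited UMI counts per gene and barcode, made with Cell Ranger on rn6 per the submitters' processing notes. The kit named in the labels and in the paper's methods counts transcript 3′ ends, whereas the paper's results text names 5′ chemistry. The file listed for WT aggregates the 3 libraries, and no label states which barcode suffix is WT. The barcodes with suffix -3 were taken as WT, since the other 2 suffixes held exactly the barcodes of the BMD and DMD files, so every WT value rests on that assignment. In that file 76.1% of BMD and 92.9% of DMD UMIs had been kept, so BMD and DMD were taken from their own files. The share of WT UMIs kept there is not known, so WT depths and unthinned WT shares may rest on reduced counts. An alternative took the BMD and DMD counts of the cardiomyocyte-like nuclei from the aggregate as well. Whether intron reads were counted is not given in the sources used here. No column of per-sample values was left unused, and no deposited column holds the authors' own comparisons.

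Barcodes were ranked by UMIs within a library and taken as nuclei from the top down to the number the study states, at no fewer than 513 (WT), 525 (BMD) and 546 (DMD) UMIs. Counts were scaled to 10000 per nucleus and logged, and 2000 variable genes without the members and listed genes, 30 components, 15 neighbours and Leiden resolution 0.5 gave 16 clusters (scanpy 1.11.5, igraph 0.11.9, Python 3.11.15). A name needed 3 markers at 2-fold over other nuclei with 10 UMIs. Between related classes, the name went to the one with more markers among the 10 top genes. The rules that leave a cluster unnamed when a second class has as many markers or over 5 mitochondrial genes lead it were set after the data were seen, and 4 clusters with 1491 nuclei stayed unnamed. Doublets were called with Scrublet (8.01%, 5.10% and 10.4% of nuclei) and removed only in an alternative.

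UMIs were summed by class and library in the 8 classes with at least 50 nuclei per library, with exact Poisson intervals for levels, exact binomial intervals for shares and for ratios (SciPy 1.17.1), all at 95% and for counting error only. Ratios were printed at 20 UMIs or more over the libraries compared. With 1 library per genotype no test was run, and edgeR 4.0.16 served only for TMM factors in an alternative. The calculations were tested on simulated counts. The members and gene lists were chosen with earlier results of these data known. Genes named beyond the members were, per list, at most 2 per direction with the largest ratio nearer 0 among those past 1.5-fold the same way in BMD and DMD, and the 5 genes most like Txnip. The listed genes Hkdc1, Gapdh, Slc5a3, Pcx, Pgd, Mlxipl, Prkag1, Ier2 and Hspa1a and the markers Ttn, Col1a2, Pecam1 and Ccr2 were not analysed here. Alternatives changed the choice of nuclei, clusters, free RNA, scaling, weights, filters and fold.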

Additional observations from a re-analysis of the deposited data

Results flagged for a closer look

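Txnip differed between BMD and WT in one direction in one class and in the other direction in others. Its log2 ratio was 2.42 in cardiomyocyte-like nuclei, against -1.33 in fibroblast-like, -1.12 in endothelial-like, -1.15 in endocardial-like, -1.10 in pericyte-like, -0.64 in lymphatic-like and -0.59 in T or B cell-like nuclei. Slc2a1 differed between DMD and WT by 1.56 in endothelial-like nuclei, from 5 WT and 22 DMD UMIs, and by -1.15 in macrophage-like nuclei. In the latter, WT was the highest library in a finer cluster led by Spp1 that held more of the WT nuclei, and not in the other finer clusters. That cluster was named monocyte or neutrophil-like at the finer clustering. Each of these rests on 1 library per genotype, and the difference between classes was not tested.

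Monocyte or neutrophil-like nuclei were too few to be compared (32 WT, 35 BMD and 261 DMD), but carried Txnip at 625 CPM in BMD and 955 CPM in DMD, above the 246 CPM of WT, from 30, 269 and 16 UMIs. The intervals of WT (141 to 400.2) and BMD (422 to 893) did not overlap. The DMD nuclei of this class had a median mitochondrial share of 9.80%, against 0.644% in WT and 1.27% in BMD, and in the 6 alternatives clustered anew the cluster led by S100a8 and S100a9 held 60 to 119 DMD nuclei in place of 261. With only nuclei under 5% the levels were 237 CPM [132, 390.2] in WT, 588 [388, 856] in BMD and 722 [584, 884] in DMD, from 30, 33 and 92 nuclei, where WT and BMD just overlapped and WT and DMD did not. No genotype had 4 or more libraries, and no library was checked for its distance from others of its genotype.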

How the results depend on the processing

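Of the values that answer a comparison, 113 kept their direction and stayed within their limits under the alternatives tried, 16 moved and 1, the BMD ratio of Txnip over all nuclei, reversed. Of the values for single genes and classes, 332 stayed within their counting intervals, 35 moved out of them and 1 reversed. A reversal was counted only for ratios past 1.5-fold in the main setting, so smaller ratios could change sign without being counted. The DMD ratio of Txnip in endothelial-like nuclei, for example, ran from -0.04 to 0.06. The log2 ratio of Txnip in cardiomyocyte-like nuclei was 2.63 (BMD) and 2.37 (DMD) with free RNA subtracted, 2.61 and 2.36 with each nucleus thinned to 500 UMIs, and -0.19 and 0.34 over all nuclei. In alternatives added after the data were seen, it was 2.89 and 2.60 in the cluster lower in Nppa alone and 0.74 and 0.44 in the cluster higher in Nppa alone, where Pdk4 reversed for DMD to -0.39 and Arrdc3 was -0.78 and -0.80. The count of members past 1.5-fold lower in BMD was 1 in the cluster higher in Nppa in place of 0. For DMD the count higher was 1 over all nuclei and 0 in that cluster in place of 2, and the count lower was 0 by mean CPM over nuclei, 0 in the cluster lower in Nppa, 3 in the cluster higher in Nppa and 0 at 2-fold in place of 1. Outside cardiomyocytes, the BMD ratio of Txnip stayed below 0 in all 7 classes under the 7 alternatives tried there, from -0.68 to -0.03 in macrophage-like, -1.28 to -0.53 in pericyte-like and -0.85 to -0.26 in T or B cell-like nuclei, and the count of classes past 1.5-fold lower was 4 to 7 in place of 6. The cause of these shifts was not tested. No paired analysis was possible because each genotype had 1 library and replicate numbers only name samples. The scaling factors of TMM lay between 0.980 and 1.013. In the 5 smaller classes compared, between 1 and 6 of the 10 members had 50 UMIs or more, and the rest could not be judged at this depth.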

Other observations

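In 3 classes outside the cardiomyocytes, the log2 ratio of Txnip for DMD over BMD was 1.17 [1.04, 1.31] in endothelial-like, 0.96 [0.86, 1.07] in fibroblast-like and 0.75 [0.54, 0.97] in macrophage-like nuclei. In the same comparison 9 of 13 circadian clock genes were past 1.5-fold higher and 1 lower in endothelial-like nuclei (median log2 ratio 0.72, beside 10.6% and 4.36% of all genes), and 7 of 12 were higher and 0 lower in macrophage-like nuclei (median 0.69, beside 12.6% and 6.55%). Of the glucocorticoid response genes 6 of 13 and 5 of 10 were higher in these classes and 0 lower. In fibroblast-like nuclei 2 of 14 clock genes and 3 of 15 glucocorticoid response genes were higher and 0 lower, beside 8.17% and 4.15% of all genes. In the other classes clock genes were higher in 5 of 12 (1 lower) in pericyte-like, 1 of 6 in lymphatic-like, 1 of 7 in T or B cell-like and 0 of 8 (1 lower, median -0.04) in endocardial-like nuclei, the class with the highest DMD over BMD ratio of Txnip. Glucocorticoid response genes were higher in 1 of 6, 1 of 4, 2 of 6 and 2 of 4 in the same order of classes, with 0 lower. The shares of all genes higher were 9.78%, 9.19%, 14.4% and 12.3%. The glucocorticoid median in endocardial-like nuclei was 0.77. A relation of these lists to Txnip was not tested.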
